A study of Mus musculus with 14 samples.

Results

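The Toll-like receptor and NF-kB pathway was examined here as 40 genes in colon RNA from mice with and without the *MiR-29ab1* locus, some of which had been given dextran sulfate sodium (DSS), a chemical that induces colitis. The genes were taken by symbol from a list of the pathway that was drawn up with earlier results of these data known. They cover the receptors that sense microbes, the adaptors and kinases below them, the NF-kB subunits with their inhibitors, and ubiquitin regulators of the signal. All 40 were found among the 55889 genes counted without DSS and among the 54721 genes counted after DSS. The C57BL/6N mice formed 4 groups. They were 4 WT mice and 4 *MiR-29ab1-/-* mice that received no DSS, and 3 WT mice and 3 *MiR-29ab1-/-* mice taken after 3 days of 3.5% DSS. By the study's data statement, a WT sample and a *MiR-29ab1-/-* sample were left out of its analysis. It names neither the experiment nor the reason. The mutant mice lack the miR-29a and miR-29b-1 genes in every cell from the germline on, so no cell type is singled out by the deletion, and the related miR-29b-2 and miR-29c genes on another chromosome are left in place. The labels give neither age nor sex of these mice. The study describes the tissue as colon, whereas the labels name crypts of the small intestine.

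Toll-like receptors are transmembrane proteins that bind microbial molecules such as lipopeptides, lipopolysaccharide, flagellin and nucleic acids. Most of them signal through the adaptor MYD88 to the IRAK kinases and the ubiquitin ligase TRAF6, and TLR3 signals through TICAM1. The signal reaches the IKK complex, which marks the IkB proteins for destruction and lets NF-kB dimers enter the nucleus. NF-kB then switches on inflammatory genes and also its own brakes, among them *Nfkbia* and *Tnfaip3*. In the colon the epithelium lies next to a dense microbiota, and this pathway is known both for maintaining the barrier and for driving colitis when it is overactive.

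The miRNAs deleted in these mice and the places where they could pair with members are shown first, because members with a match to the miR-29 seed were compared with members without one. The mature sequences below are from RefSeq on GRCm38.p6, with the seed (bases 2 to 8) in capitals. The *Mir29a* and *Mir29b-1* genes are deleted in the mutant mice. Mature miR-29b-3p has a second source, *Mir29b-2*, which gives the same sequence and is left in place, as is *Mir29c*.
miR-29a-3p, chr6:31062673-31062694 (-): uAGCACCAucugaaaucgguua
miR-29b-3p, chr6:31063025-31063047 (-): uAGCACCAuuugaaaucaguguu
miR-29b-3p, chr1:195037091-195037113 (+): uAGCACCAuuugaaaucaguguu
miR-29c-3p, chr1:195037600-195037621 (+): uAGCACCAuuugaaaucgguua
The seed was the same in all of them. A match to this seed (the letters TGGTGCT, searched on the transcript strand) was present in a 3′ UTR of 8 of the 40 members, against 2908 of 21013 genes with an annotated 3′ UTR (13.8%). The members were *Cyld*, *Ikbkb*, *Ikbkg*, *Nod2*, *Rel*, *Rela*, *Tollip* and *Traf3*. *Rel*, which encodes the NF-kB subunit c-Rel, and *Traf3*, which encodes a ubiquitin ligase of the TLR3 and non-canonical NF-kB routes, held more than 1 site each, and *Rela* encodes the main activating subunit p65. Their sites are printed on the transcript strand from GENCODE vM21 on GRCm38, with the positions of the 7-base match, and the paired bases in capitals. The second *Rel* site listed has the further A that makes it an 8mer.
Rel site, chr11:23739908-23739914 (-): tctggcctaacTGGTGCTgtataaatagt
Rel site, chr11:23741152-23741158 (-): agaggtttgtgTGGTGCTAgagacaaaaa
Traf3 site, chr12:111263895-111263901 (+): caccttgtctcTGGTGCTgccatctgtcc
Traf3 site, chr12:111264719-111264725 (+): tcagcattcctTGGTGCTcaccacccggg
Traf3 site, chr12:111265976-111265982 (+): gaagggcttgaTGGTGCTtaggggactat
Rela site, chr19:5647825-5647831 (+): cagctcctacgTGGTGCTgcccgacacca
Neither *Rel*, *Traf3* nor *Rela* passed the test between genotypes in either experiment. Without DSS the log2 fold changes of the 8 members with a site ran from -0.17 to 0.15 (median 0.076), and the median of the 30 tested members without a site was 0.029. Over all tested genes the medians were 0.029 for 2086 genes with a site and -0.009 for 10694 genes without one. After DSS the 8 members ran from -0.26 to 0.39 (median 0.022), and the 30 without a site had a median of 0.08. Over all tested genes after DSS the medians were -0.007 with a site and -0.015 without one. None of the 8 had an unadjusted p under 0.05 in either experiment, where 4.31% of all genes with a site and 3.51% of those without one did so without DSS, and 8.94% and 7.30% after DSS.

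Total counts per mouse were 14231157 to 18185020 without DSS, where every WT library was larger than every *MiR-29ab1-/-* library, and 20076719 to 23153149 after DSS. A floor of 3 reads corresponded to 0.165 to 0.215 CPM (counts relative to a library size scaled by edgeR's TMM factors) without DSS and to 0.125 to 0.159 CPM after DSS, which covers counting error only. The deleted miRNA genes cannot check the genotype here, because their precursors had at most 1 read in any mouse. *Lncpint*, a long noncoding RNA gene next to the deleted locus that was chosen with its values known, separated the genotypes in all mice, with 0.417 to 1.28 CPM in WT and 93.7 to 201 CPM in *MiR-29ab1-/-* mice without DSS, and 0.251 to 0.586 against 29.4 to 60.7 CPM after DSS. The 6 markers of colon summed to 1802 to 4712 CPM without DSS and the 7 markers of small intestine to 171 to 301 CPM. After DSS the sums were 4656 to 6396 and 236 to 447 CPM. The 7 epithelial markers summed to 9615 to 13099 CPM without DSS and 16444 to 20717 CPM after DSS. The 5 smooth muscle markers summed to 0.203 to 0.991 and 0.209 to 1.86 CPM. The 4 endothelial markers summed to 2.41 to 4.52 and 0.837 to 4.77 CPM. Markers of muscle and vessels were thus far below those of epithelium, and whether crypts or whole colon were taken was not tested. The 2 *MiR-29ab1-/-* libraries numbered 1 and 2 after DSS stood apart from the other 4 of that experiment in their share of reads on mitochondrial genes, with 14.8% and 20.2% against 6.15% to 8.81%. The labels name no litter or cage, and the study's methods describe its mice in general as littermates matched for age and sex without saying which of them shared a litter, so p values measure the spread between these animals.

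Levels within the pathway spanned a wide range, and are compared here per kilobase of gene length (CPM per kb) in the mice without DSS. The highest were *Nfkbia*, the IkB alpha inhibitor, at 36.2 in WT and 36.5 in *MiR-29ab1-/-* mice, and *Cd14*, the co-receptor for lipopolysaccharide, at 31.8 and 33.8. The A20 partner *Tnip1* followed with 21.5 and 25.6. Among the surface receptors *Tlr1* had the highest level (18.5 and 16.8), then *Tlr2* (7.55 and 8.39) and *Tlr4* (4.42 and 4.94), while the flagellin receptor *Tlr5* (1.11 and 1.06) and *Tlr6* (0.390 and 0.409) were far lower. *Tlr3*, the endosomal receptor for double-stranded RNA, stood at 8.32 and 9.66. The endosomal receptors *Tlr7* and *Tlr9* had 0 to 15 reads per mouse in both experiments and were too low to test. *Ly96*, which encodes the MD-2 partner of TLR4, was also low (2.09 and 2.76), and so were the subunit *Rel* (1.44 and 1.46) and the inhibitor *Nfkbie* (1.27 and 1.42). *Nfkb1* (7.86 and 7.94) lay below *Rela* (15.8 and 17.1) per kilobase, and *Myd88* stood at 11.2 and 11.5. In CPM the order was reversed, with *Nfkb1* at 94.8 and 95.7 and *Rela* at 48.5 and 52.7. The gene lengths used were 12061 and 3072 bases, so the order of such genes depends on the length assigned to them.

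**Figure D1:**
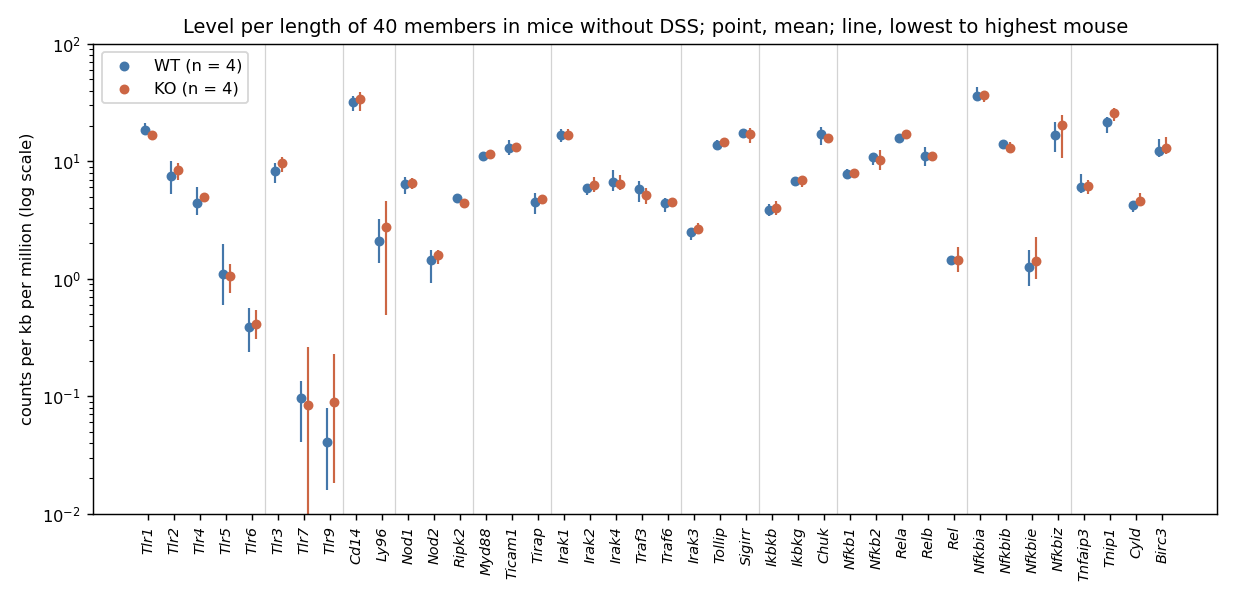
Level of each of the 40 members in mice without DSS, in CPM per kb on a log axis, grouped by role from surface receptors on the left to ubiquitin regulators on the right. Points are means of 4 mice and lines run from the lowest to the highest mouse, with values under 0.01 drawn at the axis. *Tlr7* and *Tlr9* lie under 0.1 on average, and *Nfkbia* and *Cd14* lie highest.

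The first comparison asked whether loss of *MiR-29ab1* changed the pathway in unchallenged colon. No member passed the test. Of the 40 members, 38 could be tested, and 0 had an adjusted p under 0.05 (edgeR's quasi-likelihood test, Benjamini-Hochberg over all genes; every member at 1), where 0.0194% of the 15441 tested genes were called higher. At an unadjusted p under 0.05 the count was also 0 of 38 by edgeR and 0 by DESeq2, against 2.09% of tested genes called higher and 1.58% called lower. In no member did the genotypes fail to overlap, against 1.11% of genes with *MiR-29ab1-/-* mice all higher and 0.920% with them all lower. The median log2 fold change of the members was 0.04 and that of all tested genes -0.002. By role the log2 fold changes of the 3 adaptors lay between 0.02 and 0.07, those of the 3 IKK subunits between -0.11 and 0.07, and those of the 5 NF-kB subunits between -0.08 and 0.12. The widest ranges were those of the 4 IkB genes (-0.10 to 0.29), the 3 NOD pathway genes (-0.15 to 0.15), the 5 surface receptors (-0.14 to 0.16) and the co-receptors *Cd14* (0.09) and *Ly96* (0.40 ± 0.54).

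*Myd88*, the shared adaptor, was measured at 29.8, 28.4, 29.6 and 27.8 CPM in WT mice and at 28.7, 27.8, 30.0 and 31.6 CPM in *MiR-29ab1-/-* mice. The ranges overlapped, with 2 of the 4 mutant mice above every WT mouse, and the log2 fold change was 0.03 ± 0.09 (SE, n = 4 and 4), with a span of 2 SE from -0.14 to 0.21. *Nfkb1*, which encodes the p50 precursor p105, was at 104, 94.3, 91.3 and 89.6 CPM in WT and 86.4, 90.6, 104 and 101 CPM in the mutant mice, for a log2 fold change of 0.01 ± 0.09 (span of 2 SE from -0.17 to 0.20). Exons of *Myd88* overlap those of *Acaa1a* on the opposite strand, and whether the counting used strand is not given in the sources used here. The smallest p of all members without DSS was that of *Tnip1*, whose product helps A20 to restrain NF-kB. It was at 84.3, 80.9, 61.4 and 77.6 CPM in WT mice and 92.4, 78.5 and 91.6 CPM in *MiR-29ab1-/-* mice 1, 2 and 4, mouse 3 being the highest of all, with a log2 fold change of 0.25 ± 0.12 and an unadjusted p of 0.0516 (edgeR, adjusted p = 1). Of the mutant mice 3 of 4 lay above every WT mouse and the remaining one lay within the WT range. Without WT mouse 3, the lowest, the value was 0.17. *Tlr3* followed, with 34.1, 50.4, 44.3 and 44.5 CPM in WT and 47.4, 42.3, 56.6 and 54.9 CPM in *MiR-29ab1-/-* mice (log2 fold change 0.22 ± 0.13, unadjusted p = 0.136 by edgeR), and the groups overlapped. Without WT mouse 1, the lowest, it was at 0.12. *Tlr1*, the TLR2 partner for triacylated lipopeptides, had a negative value of -0.14 ± 0.09, which was -0.06 without WT mouse 1, the highest.

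After 3 days of DSS, again no member passed the test between genotypes at an adjusted p under 0.05, where 0.0134% of all tested genes were called higher. At the unadjusted cutoff 6 of the 38 members were called, 5 of them higher in *MiR-29ab1-/-* mice (13.2% of the members) and 1 lower. Over all 14908 tested genes 3.98% were called higher and 3.25% lower. The 5 were *Nfkbiz*, *Ly96*, *Tnfaip3*, *Tlr2* and *Nfkbia*, and the lower one was the peptidoglycan sensor *Nod1*. Their adjusted p lay between 0.646 and 0.663 (edgeR, Benjamini-Hochberg). The median log2 fold change of all 38 members was 0.05, against -0.005 over all tested genes, and single members ran from -0.45 to 0.82. The genotypes did not overlap in 5 members that were higher in *MiR-29ab1-/-* mice and in 1 that was lower, against 5.33% and 6.28% of all tested genes. DESeq2 also gave 0 members at an adjusted p under 0.05 in this comparison.

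*Nfkbiz* encodes IkB zeta, a nuclear cofactor that NF-kB itself induces. It was at 35.7, 63.2 and 69.4 CPM in the 3 WT mice and at 98.8, 119.9 and 78.0 CPM in the 3 *MiR-29ab1-/-* mice. All 3 mutant mice lay above all 3 WT mice, and WT mouse 1 was far below the other WT mice. The log2 fold change was 0.82 ± 0.28 (SE, n = 3 and 3; edgeR, unadjusted p = 0.0225). *Nfkbia* encodes IkB alpha, the classical inhibitor that NF-kB resynthesizes to end its own signal. It was at 67.3, 63.3 and 73.8 CPM in WT and 87.6, 108 and 70.9 CPM in *MiR-29ab1-/-* mice (log2 fold change 0.38 ± 0.15, edgeR, unadjusted p = 0.0304). *MiR-29ab1-/-* mice 1 and 2 were above every WT mouse and mouse 3 lay within the WT range. *Tnfaip3* encodes A20, the deubiquitinase that restrains IKK activation. Its values were 44.2, 60.0 and 64.0 CPM in WT and 100.2, 100.1 and 58.4 CPM in *MiR-29ab1-/-* mice, with a log2 fold change of 0.62 ± 0.24 (edgeR, unadjusted p = 0.0328). The same division was seen, with mutant mice 1 and 2 high and mouse 3 among the WT values. The other IkB genes showed less, with *Nfkbib* at 0.01 ± 0.12 and *Nfkbie* at 0.05 ± 0.34.

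Among the receptors, *Tlr2*, which recognizes bacterial lipopeptides, was at 26.3, 32.1 and 40.8 CPM in WT and 35.3, 53.1 and 51.0 CPM in *MiR-29ab1-/-* mice (log2 fold change 0.49 ± 0.20, edgeR, unadjusted p = 0.0402). Mutant mice 2 and 3 were above all WT mice, and mouse 1 was not. *Ly96* was at 4.31, 2.72 and 2.94 CPM in WT and 4.63, 5.20 and 6.45 CPM in *MiR-29ab1-/-* mice (log2 fold change 0.71 ± 0.26, edgeR, unadjusted p = 0.0246), from 62 to 155 reads per mouse, and the groups did not overlap. The partner receptor *Tlr4* (0.26 ± 0.13) and the co-receptor *Cd14* (0.23 ± 0.13) had positive values that did not reach the cutoff, while *Tlr1* was at 0.04 ± 0.11 and *Tlr5* at -0.12 ± 0.23. *Nod1* was at 19.6, 16.3 and 18.2 CPM in WT and 14.1, 10.5 and 15.1 CPM in *MiR-29ab1-/-* mice, all 3 below the WT mice (log2 fold change -0.45 ± 0.16, edgeR, unadjusted p = 0.0225). The muramyl dipeptide sensor *Nod2* (-0.26 ± 0.24) and the shared kinase *Ripk2* (-0.13 ± 0.19) also had negative values without reaching the cutoff.

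**Figure D2:**
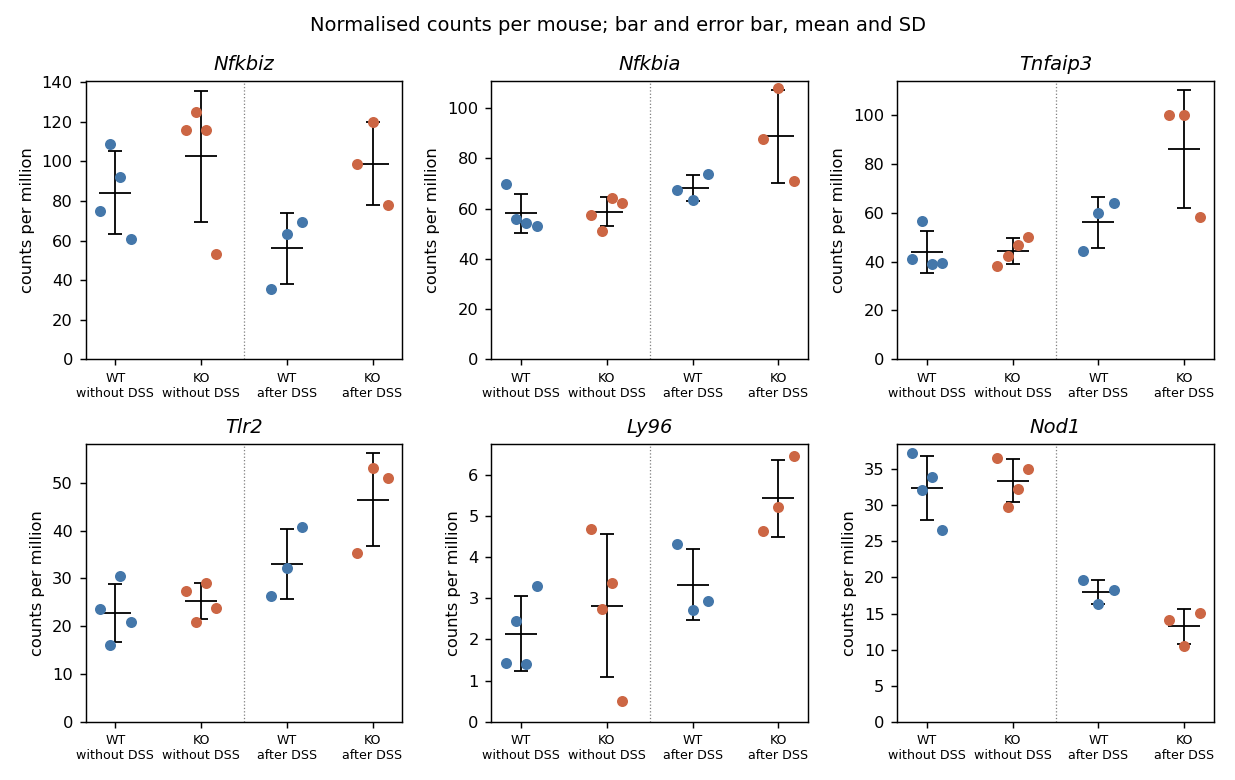
Normalised counts (CPM, linear axes from 0) of the 6 members with an unadjusted p under 0.05 between genotypes after DSS, in each mouse of the 4 groups. Points are mice, and bars with error bars are the mean and SD; each experiment has its own TMM scaling, and a dotted line separates the experiments. *Nfkbiz* and *Ly96* do not overlap between genotypes after DSS and *Nod1* lies lower in the mutant mice, whereas without DSS the genotypes overlap in all 6.

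The calls depended on single mice. Each of the 6 members lost its unadjusted p under 0.05 when certain mice were left out, 2 of the 6 mice in the case of *Nfkbiz*, 3 for *Ly96* and *Nod1*, and 4 for *Tnfaip3*, *Tlr2* and *Nfkbia*. *Nfkbiz* lost it without *MiR-29ab1-/-* mouse 1 or 2, where its unadjusted p reached 0.0674 by edgeR, and also when no filter on low counts was applied, as did *Tnfaip3*. *Ly96* lost it when all 14 mice were fitted in one model. *Nfkbia* went from 0.38 to 0.22 without *MiR-29ab1-/-* mouse 2, and *Nod1* from -0.45 to -0.30. The number of members called higher was 2 without *MiR-29ab1-/-* mouse 1 or 2 or WT mouse 1 or 2, 4 without WT mouse 3 and 6 without *MiR-29ab1-/-* mouse 3. The number called lower was 0 without *MiR-29ab1-/-* mouse 2 or WT mouse 1 or 3, and 2 without *MiR-29ab1-/-* mouse 3 or WT mouse 2. *MiR-29ab1-/-* mice 1 and 2 are also those with 14.8% and 20.2% of reads on mitochondrial genes, and the part of that share in these values was not tested.

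Markers of other cell types also differed between these libraries. The 6 neutrophil markers summed to 45.5, 98.1 and 71.1 CPM in WT mice 1 to 3 after DSS and to 129, 242 and 90.6 CPM in *MiR-29ab1-/-* mice 1 to 3, and 1 of the 5 that could be tested had an unadjusted p under 0.05. The 10 macrophage markers summed to 19.1 to 33.4 CPM in WT and 19.9 to 50.5 CPM in *MiR-29ab1-/-* mice, with 0 called, and the 6 T cell markers to 27.7 to 57.8 and 42.3 to 96.8 CPM, with 1 called. In none of these 3 lists was a marker at 0 in a whole group. The 5 fibroblast markers summed to 23.0, 18.8 and 31.1 CPM in WT mice 1 to 3 and to 34.1, 44.6 and 14.8 CPM in *MiR-29ab1-/-* mice 1 to 3, with 1 of 4 called higher. The 7 epithelial markers summed to 16444 to 18689 CPM in WT and 17459.9 to 20717 CPM in *MiR-29ab1-/-* mice. Highest in neutrophil and macrophage markers was *MiR-29ab1-/-* mouse 2, which was also highest in *Nfkbiz*, *Nfkbia* and *Tlr2*. *Ly96* was highest in *MiR-29ab1-/-* mouse 3, which had the lowest neutrophil and macrophage sums of the 3 mutant mice, and *Tlr2* lay above all WT mice in that mouse but not in mouse 1. In a bulk sample a difference in the number of such cells and in RNA per cell cannot be told apart, and the part of cell composition was not tested.

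The central members *Myd88* and *Nfkb1* did not reach the cutoff after DSS. *Myd88* was at 27.2, 34.7 and 33.0 CPM in WT and 36.2, 31.7 and 35.8 CPM in *MiR-29ab1-/-* mice (log2 fold change 0.13 ± 0.12, span of 2 SE from -0.11 to 0.37). *Nfkb1* was at 69.9, 70.8 and 67.2 CPM in WT and 82.5, 73.4 and 69.8 CPM in *MiR-29ab1-/-* mice (0.12 ± 0.09, span of 2 SE from -0.07 to 0.31), and the ranges overlapped. Among the other subunits *Rel* had the largest value, 0.39 ± 0.20, with 11.4, 12.2 and 8.24 CPM in *MiR-29ab1-/-* mice against 6.78, 8.75 and 8.68 CPM in WT mice (edgeR, unadjusted p = 0.0809). Besides *Nfkbiz* and *Ly96*, 3 members had higher values in all *MiR-29ab1-/-* mice with small differences. *Tirap*, the bridging adaptor of MYD88, was at 18.3, 20.6 and 18.3 CPM in WT and 21.6, 23.0 and 20.7 CPM in *MiR-29ab1-/-* mice (0.19 ± 0.11). *Ikbkb*, the catalytic IKK beta subunit, was at 44.3, 48.8 and 47.3 CPM in WT and 58.6, 52.0 and 49.7 CPM in *MiR-29ab1-/-* mice (0.19 ± 0.10). *Tollip*, which restrains IRAK1, was the third, at no more than 61.1 CPM in WT and 61.5 to 65.6 CPM in *MiR-29ab1-/-* mice (0.11 ± 0.09). In the kinase and ligase group *Irak4* was largest at 0.18 ± 0.14, with 36.6, 39.3 and 35.9 CPM in WT and 47.3, 46.7 and 33.0 CPM in *MiR-29ab1-/-* mice, which overlapped, and *Traf6* was at 0.01 ± 0.12.

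**Figure D3:**
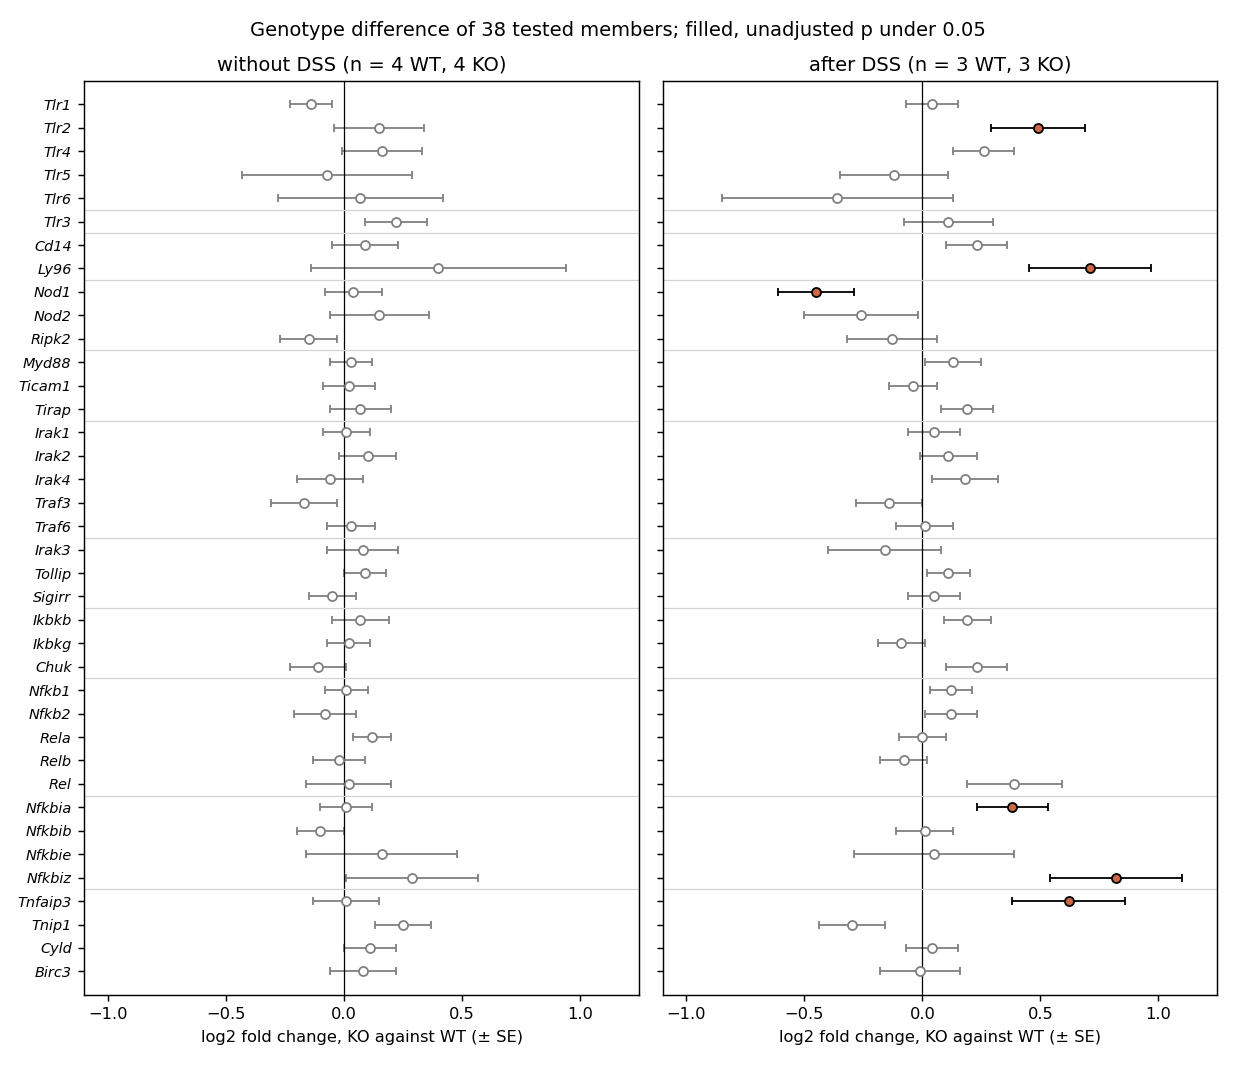
Log2 fold change between *MiR-29ab1-/-* and WT mice for the 38 tested members, without DSS on the left and after DSS on the right, with bars of 1 SE from edgeR. Grey lines separate the roles, and filled points have an unadjusted p under 0.05, which 0 members have without DSS and 6 have after DSS.

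The interaction of genotype and DSS, fitted over all 14 mice, tests whether the genotype difference itself differed between the experiments. No member passed at an adjusted p under 0.05 (edgeR, the 3 smallest at 0.987), and DESeq2 gave 0 as well. At an unadjusted p under 0.05 the count was 3 of 38, with 1 higher and 2 lower, against 1.73% and 2.30% of the 16370 tested genes. They were *Tnip1* (-0.55 ± 0.19, edgeR, unadjusted p = 0.0117), *Nod1* (-0.48 ± 0.19, unadjusted p = 0.0235) and *Tnfaip3* (0.61 ± 0.28, unadjusted p = 0.0441). *Tnip1* was singled out after its values were seen. After DSS it was at 119, 83.7 and 92.4 CPM in WT and 75.6, 76.5 and 88.3 CPM in the mutant mice, for a log2 fold change of -0.30 ± 0.14 where the value without DSS had been 0.25 ± 0.12. WT mouse 1 was the highest of the 6, and without it the value was -0.14. The interaction of *Tnip1* kept an unadjusted p under 0.05 in all 19 alternatives, with an adjusted p between 0.403 and 1 by edgeR or DESeq2. That of *Nod1* lost it without *MiR-29ab1-/-* mouse 2 or WT mouse 1 after DSS, and that of *Tnfaip3* lost it in 9 of the 19. *Nfkbiz*, which had the largest genotype difference after DSS, gave an interaction of 0.53 ± 0.44.

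The last comparison set the mice after DSS against those without DSS within each genotype. Here many members changed, but the experiments were counted in separate tables, so DSS and experiment cannot be told apart, and levels are given on a scale common to all 14 mice. In WT mice 14 of the 38 members rose and 4 fell at an adjusted p under 0.05, against 20.2% and 18.1% of the 16370 tested genes, so the members made up 36.8% higher and 10.5% lower. In *MiR-29ab1-/-* mice 13 rose and 5 fell, or 34.2% and 13.2%, against 23.2% and 22.7%. The median log2 fold change of the members was 0.19 in WT and 0.24 in *MiR-29ab1-/-* mice, while those of all tested genes were -0.022 and -0.029. In both genotypes 12 members rose (17.5% of all genes did so) and 3 fell (15.1%). The 12 were *Tlr1*, *Tlr2*, *Cd14*, *Myd88*, *Ticam1*, *Irak2*, *Irak4*, *Nfkb2*, *Relb*, *Nfkbia*, *Nfkbib* and *Tnfaip3*, and the 3 were *Nod1*, *Irak1* and *Irak3*.

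Markers of some other cell types rose in the same comparison, and those of B cells fell, mostly in *MiR-29ab1-/-* mice. In the model over 14 mice, 1 of 5 tested neutrophil markers rose in WT and 4 of 5 in *MiR-29ab1-/-* mice, with median log2 fold changes of 1.72 and 3.77. Of the macrophage markers 2 of 10 rose in WT and 5 of 10 in *MiR-29ab1-/-* mice (medians 0.96 and 1.62), and of the epithelial markers 6 of 7 rose in each genotype (medians 0.67 and 0.76). No T cell marker passed in either genotype, at an adjusted or an unadjusted p under 0.05 by edgeR. The 6 B cell markers summed to 6.02 to 11.4 CPM in WT and 3.11 to 20.6 CPM in *MiR-29ab1-/-* mice without DSS. After DSS their sums were 1.38 to 7.64 and 1.21 to 2.01 CPM, with each experiment on its own scaling. In the model over 14 mice, 1 of 6 B cell markers fell in WT and 5 of 6 in *MiR-29ab1-/-* mice (medians -0.90 and -2.33). Of all tested genes 18.1% and 22.7% fell. The part of cell composition in the changes of the members was not tested.

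Receptors were among the members that rose most. *Tlr1* rose 1.73-fold in WT, from 56.6 ± 4.94 to 97.7 ± 13.4 CPM (SD, n = 4 and 3), and 1.96-fold in *MiR-29ab1-/-* mice, from 51.5 ± 2.91 to 101 ± 0.920 CPM (edgeR, adjusted p = 3.4e-05 and 3.5e-06). The mice after DSS all lay above those without. *Tlr2* rose 1.79-fold in WT, from 20.8 ± 5.34 to 37.2 ± 8.14 CPM, and 2.27-fold in *MiR-29ab1-/-* mice, from 23.1 ± 3.38 to 52.4 ± 10.9 CPM (edgeR, adjusted p = 0.0057 and 3.8e-04). Again the ranges were apart in both genotypes. *Cd14* rose 1.60-fold in WT, from 50.5 ± 8.53 to 80.7 ± 3.42 CPM, and 1.77-fold in *MiR-29ab1-/-* mice, from 53.6 ± 8.87 to 94.6 ± 16.2 CPM (edgeR, adjusted p = 0.00284 and 4.8e-04). *Ly96* rose in *MiR-29ab1-/-* mice, 2.36-fold from 2.59 ± 1.60 to 6.12 ± 1.05 CPM (edgeR, adjusted p = 0.0468), and in WT mice its value was 1.90-fold with an adjusted p of 0.146. *Tlr4* (log2 fold changes 0.15 and 0.26), *Tlr3* (0.33 and 0.24) and *Tlr5* (-0.03 and -0.07) passed in neither genotype. The cytosolic sensor *Nod1* fell by 0.55 on the log2 scale in WT, from 29.7 ± 3.56 to 20.3 ± 1.93 CPM, and by 1.03 in *MiR-29ab1-/-* mice, from 30.6 ± 2.62 to 14.9 ± 2.75 CPM (edgeR, adjusted p = 0.00589 and 4.3e-05). *Nod2* fell by 0.82 in *MiR-29ab1-/-* mice and was at -0.41 in WT, and *Tlr6* fell by 1.10 in *MiR-29ab1-/-* mice from no more than 32 reads per mouse.

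Downstream of the receptors, *Myd88* rose from 26.4 ± 0.390 to 35.6 ± 4.31 CPM in WT and from 27.0 ± 1.30 to 39.0 ± 2.90 CPM in *MiR-29ab1-/-* mice (log2 fold changes 0.43 ± 0.10 and 0.53 ± 0.10; edgeR, adjusted p = 0.00289 and 4.3e-04). The ranges of the mice with and without DSS were apart in both genotypes. *Ticam1*, the adaptor of TLR3, rose by less (0.40 and 0.35), and *Tirap* passed in neither genotype (0.07 and 0.20). *Irak2*, the kinase that sustains TLR signalling, rose 1.53-fold in WT, from 23.8 ± 2.01 to 36.4 ± 1.23 CPM, and 1.55-fold in *MiR-29ab1-/-* mice, from 25.4 ± 3.40 to 39.3 ± 5.64 CPM (edgeR, adjusted p = 0.00116 and 6.5e-04). *Irak4*, the first kinase of the complex, rose 1.35-fold, from 31.0 ± 5.87 to 42.0 ± 1.99 CPM, and 1.60-fold, from 29.8 ± 3.81 to 47.8 ± 9.07 CPM (edgeR, adjusted p = 0.0339 and 0.00209). *Irak1* fell by 0.39 and 0.35 on the log2 scale. The largest fall of the called members in both genotypes was that of *Irak3*, which encodes IRAK-M, an inhibitory member of the IRAK family. It went from 8.49 ± 0.841 to 4.18 ± 0.603 CPM in WT and from 8.95 ± 0.951 to 3.73 ± 0.395 CPM in *MiR-29ab1-/-* mice, log2 fold changes of -1.02 ± 0.17 and -1.26 ± 0.17 (edgeR, adjusted p = 4.0e-04 and 5.3e-05). Its exons overlap those of *Tmbim4* on the opposite strand. Exons of *Irak2*, *Irak4*, *Nfkb2*, *Nfkbib*, *Tlr3*, *Tirap* and *Ikbkg* also overlap those of other genes on the opposite strand. *Traf6* (-0.07 and -0.08) and the inhibitor *Sigirr* (-0.15 and -0.04) passed in neither genotype.

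Of the NF-kB subunits, *Relb* rose 1.49-fold in WT, from 39.8 ± 5.82 to 59.4 ± 2.99 CPM, and 1.43-fold in *MiR-29ab1-/-* mice, from 39.3 ± 0.391 to 56.4 ± 4.52 CPM (edgeR, adjusted p = 7.4e-04 and 0.00104). *Nfkb2*, which encodes the partner of RelB in the non-canonical dimer, rose 1.26-fold and 1.45-fold. *Rela* rose in WT mice (log2 fold change 0.29) and was at 0.18 in *MiR-29ab1-/-* mice. *Nfkb1* passed in neither, with 86.8 ± 4.83 and 78.0 ± 2.10 CPM in WT and 87.6 ± 7.49 and 84.9 ± 7.41 CPM in *MiR-29ab1-/-* mice (log2 fold changes -0.15 ± 0.09 and -0.04 ± 0.09). Of the 3 IKK genes *Ikbkb* fell in WT (-0.34), and *Chuk* and *Ikbkg* passed in neither genotype. The feedback genes *Nfkbia* and *Tnfaip3* rose in both. *Nfkbia* went from 53.2 ± 6.34 to 76.7 ± 5.93 CPM in WT and from a range of 47.2 to 58.7 to one of 80.0 to 121 CPM in *MiR-29ab1-/-* mice (1.44-fold and 1.86-fold; edgeR, adjusted p = 0.00582 and 8.1e-05). *Tnfaip3* went from 40.2 ± 8.15 to 63.1 ± 11.7 CPM and from 40.5 ± 4.58 to 97.3 ± 27.1 CPM (1.57-fold and 2.40-fold; edgeR, adjusted p = 0.0176 and 1.6e-04). *Tnip1* rose in WT (1.59-fold, from 69.6 ± 9.47 to 111 ± 21.3 CPM) and was at 1.09-fold in *MiR-29ab1-/-* mice, from 82.9 ± 7.92 to 90.4 ± 8.05 CPM. *Nfkbiz* passed in neither genotype (log2 fold changes -0.29 ± 0.31 and 0.25 ± 0.31), and neither did *Cyld*, *Birc3* and *Nfkbie*.

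**Figure D4:**
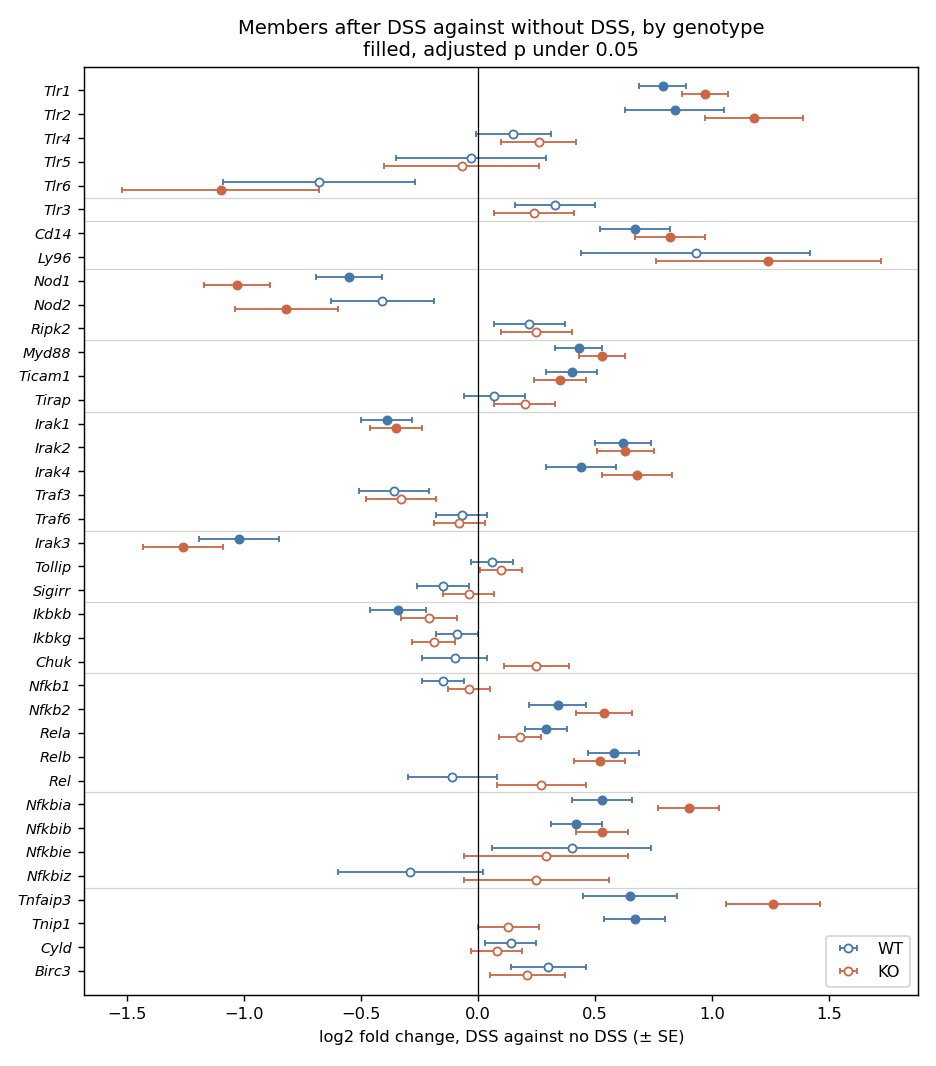
Log2 fold change after DSS against without DSS for the 38 tested members, in WT mice (blue) and *MiR-29ab1-/-* mice (orange), with bars of 1 SE from the model over 14 mice. Filled points have an adjusted p under 0.05, 18 in each genotype, and *Irak3* and *Nod1* lie to the left where *Tlr1*, *Tlr2*, *Cd14* and *Tnfaip3* lie to the right.

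Some of these calls rested on few mice. Of the 18 calls in WT mice, 12 were kept under every alternative and 6 were lost under at least 1. *Irak4* was lost in 6 of 19, all of them fits without 1 mouse, *Ikbkb* in 5, *Tnfaip3* in 3 and *Irak1* in the fit without WT mouse 3 after DSS, and *Nfkb2* and *Rela* were lost in 9 and 5 of 18. Of the 18 in *MiR-29ab1-/-* mice, 14 were kept under every alternative. *Ly96* was lost in 10 of 18 and *Tlr6* in 8 of 18, and *Ticam1* and *Irak1* were lost without *MiR-29ab1-/-* mouse 3 after DSS. The number of members that fell was 2 in WT mice without WT mouse 3 after DSS, and 3 in *MiR-29ab1-/-* mice without *MiR-29ab1-/-* mouse 3. Lengths of the gene model differed between the tables for *Cd14*, *Nfkb2* and *Rela*, so their values after DSS and without DSS were not counted over the same bases.

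Since several members are themselves induced by NF-kB, the RefSeq promoters of the members (GRCm38.p6) were searched on both strands for a strict kB-like motif, which is GGG, any 2 bases and TTTCC, and for a wider one, which is GGG, any 3 bases and TTCC and includes the strict one. Each promoter window ran from 250 bases before the start site to 50 after it. The table held 30 of the 40 members. The wider motif was present in 13 of the 30, against 6.31% of 27025 genes, and the strict one in 7, against 1.89%. The 13 were *Chuk*, *Cyld*, *Nfkb2*, *Nfkbia*, *Nfkbie*, *Rel*, *Tirap*, *Tlr2*, *Tlr3*, *Tlr6*, *Tnfaip3*, *Tnip1* and *Traf3*. The 250 bases before the start site are printed for 4 of them, which had an unadjusted p under 0.05 between genotypes after DSS or in the interaction, with the matches in capitals.
Nfkbia promoter, chr12:55492648-55492897 (-): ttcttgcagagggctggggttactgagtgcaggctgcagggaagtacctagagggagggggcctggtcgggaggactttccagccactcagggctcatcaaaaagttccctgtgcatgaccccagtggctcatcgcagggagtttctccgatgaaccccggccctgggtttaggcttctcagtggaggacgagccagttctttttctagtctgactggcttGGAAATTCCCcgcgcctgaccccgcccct
Tnfaip3 promoter, chr10:19015411-19015660 (-): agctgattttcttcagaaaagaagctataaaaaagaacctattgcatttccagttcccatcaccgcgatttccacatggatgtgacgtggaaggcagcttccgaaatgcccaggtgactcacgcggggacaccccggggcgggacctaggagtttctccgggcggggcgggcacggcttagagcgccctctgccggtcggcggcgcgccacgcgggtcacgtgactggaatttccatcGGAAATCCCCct
Tlr2 promoter, chr3:83841609-83841858 (-): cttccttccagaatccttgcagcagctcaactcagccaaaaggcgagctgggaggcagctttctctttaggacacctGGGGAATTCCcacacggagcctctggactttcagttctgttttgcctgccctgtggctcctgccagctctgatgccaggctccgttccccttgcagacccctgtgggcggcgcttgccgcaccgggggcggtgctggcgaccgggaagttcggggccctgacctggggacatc
Tnip1 promoter, chr11:54962941-54963190 (-): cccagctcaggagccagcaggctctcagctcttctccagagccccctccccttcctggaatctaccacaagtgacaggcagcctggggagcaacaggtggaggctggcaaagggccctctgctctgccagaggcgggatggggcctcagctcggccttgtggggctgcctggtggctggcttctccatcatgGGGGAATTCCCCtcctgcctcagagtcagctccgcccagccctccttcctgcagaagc
In *Nfkbia* the match lay at -29 to -20 and in *Tlr2* at -173 to -164 from the start site, and in *Tnip1* a pair of overlapping matches on opposite strands formed a palindrome. *Tnfaip3* had a further match 33 bases after this start site, and *Nod1* had no match in either of its promoters in the table. After DSS against no DSS, 5 of the 13 members with a match rose and 0 fell in WT mice, and 4 rose and 1 fell in *MiR-29ab1-/-* mice, where of all tested genes 20.2% rose and 18.1% fell in WT and 23.2% rose and 22.7% fell in *MiR-29ab1-/-* mice. Of the 16 tested members listed without a match, 7 rose and 3 fell in WT and 6 rose and 4 fell in *MiR-29ab1-/-* mice. A match is a description of letters and says nothing of binding.

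The rest of the pathway and its target genes were read from lists. Like the members, these were drawn up with earlier results of these data known, so their shares are a description only. Of 50 other genes of the pathway 44 could be tested without DSS, and 0 passed at an adjusted or an unadjusted p under 0.05 by edgeR (unadjusted also 0 by DESeq2). After DSS 0 of 44 passed at an adjusted p, and at an unadjusted p under 0.05 there were 5 higher and 1 lower, or 11.4% higher against 3.98% of all tested genes. The 5 were *Tifa*, an adaptor that activates TRAF6 (0.76 ± 0.21), *Lbp*, the lipopolysaccharide-binding protein (2.28 ± 0.62), *Zc3h12a*, the ribonuclease Regnase-1 (0.71 ± 0.24), *Tlr12* (1.22 ± 0.50) and *Tnip3* (0.59 ± 0.24), and the lower one was *Peli2* (-0.57 ± 0.23), which encodes a ubiquitin ligase. *Lbp* was at 4.02, 13.7 and 5.74 CPM in WT and 50.6, 44.1 and 19.6 CPM in *MiR-29ab1-/-* mice, without overlap. Nor did *Tifa* overlap, with 32.4, 33.4 and 44.4 CPM in WT and 62.7, 78.2 and 46.0 CPM in *MiR-29ab1-/-* mice. *Tlr12* was low and overlapped, at 0.335, 0.628 and 0.759 CPM in WT and 2.11, 1.17 and 0.749 CPM in *MiR-29ab1-/-* mice. The median log2 fold change of the 44 was 0.08 without DSS and 0.02 after DSS. The number called higher after DSS was 12 without *MiR-29ab1-/-* mouse 3, 3 without mouse 1, and 2 without mouse 2 or without WT mouse 1. The number called lower was 0 without *MiR-29ab1-/-* mouse 1 or 2 or without WT mouse 3, and 2 without any of the other 3 mice. *Peli2* was among those 2 without *MiR-29ab1-/-* mouse 3 and without WT mouse 2, and not without WT mouse 1. Between DSS and no DSS, 9 of 46 rose and 4 fell in WT and 9 rose and 7 fell in *MiR-29ab1-/-* mice at an adjusted p under 0.05. That is 19.6% higher in each genotype, where 20.2% of all tested genes rose in WT and 23.2% in *MiR-29ab1-/-* mice. Of all tested genes 18.1% fell in WT and 22.7% in *MiR-29ab1-/-* mice.

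Of 40 NF-kB target genes, 20 could be tested without DSS and 27 after DSS, and 0 passed at an adjusted p in either by edgeR. Without DSS the invariant chain gene *Cd74* had an unadjusted p under 0.05 (1.40 ± 0.58), with 108, 78.5, 93.5 and 71.3 CPM in WT and 201, 48.1, 229 and 448 CPM in *MiR-29ab1-/-* mice, so 3 of the 4 mutant mice were above all WT mice. This 1 call of 20 is 5.00%, where 2.09% of all tested genes were called higher without DSS. The number of target genes called higher without DSS was 0 when any of 6 of the 8 mice was left out, and 2 without WT mouse 1. After DSS 5 of 27 were higher at an unadjusted p under 0.05 and 0 lower, against 3.98% and 3.25% of all tested genes, and the median of the 27 was 0.38. DESeq2 called 8 higher, and edgeR with all 14 mice in one model called 10. The 5 called by edgeR within the experiment were the chemokines *Cxcl5* (2.06 ± 0.58) and *Cxcl1* (2.00 ± 0.74), the siderophore binder *Lcn2* (2.32 ± 0.77), the acute-phase gene *Saa3* (1.29 ± 0.48) and the apoptosis regulator *Cflar* (0.27 ± 0.08). *Lcn2* was at 0.502, 1.05 and 0.617 CPM in WT and 4.22, 6.15 and 0.624 CPM in *MiR-29ab1-/-* mice, and *Cxcl1* at 0.628, 1.17 and 0.712 and 3.60, 5.99 and 0.624 CPM. As with *Nfkbia* and *Tnfaip3*, *MiR-29ab1-/-* mice 1 and 2 were high and mouse 3 was not above the WT mice. *Cxcl5* did not overlap, at 0.921, 0.795 and 0.332 CPM in WT and 2.99, 4.67 and 1.08 CPM in *MiR-29ab1-/-* mice. The WT values of *Cxcl5*, *Cxcl1* and *Lcn2* were low, where a floor of 3 reads stood at 0.125 to 0.159 CPM. *Cflar* was at 55.9, 56.7 and 53.0 CPM in WT and 67.5, 66.8 and 65.8 CPM in all 3 mutant mice. Without *MiR-29ab1-/-* mouse 2 the number of target genes called higher was 2, without mouse 3 it was 12, and without WT mouse 1 it was 3. Between DSS and no DSS, 9 of 27 target genes rose and 1 fell in WT, and 14 rose and 1 fell in *MiR-29ab1-/-* mice at an adjusted p under 0.05 (medians 0.54 and 1.31). The shares that rose were 33.3% and 51.9%, against 20.2% and 23.2% of all tested genes.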

How the data were processed

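RNA of 14 mice was sequenced from libraries made with the NEBNext Ultra Directional kit after TRIzol extraction. Each experiment has its own table, in which the deposited values used here are unnormalized read counts, beside FPKM values in 14 columns and columns of the authors' own comparisons (fold changes, p values), none of which were used. The submitters' processing notes name HISAT2 and DESeq2. The counter, the genome build and the use of strand are not given in the sources used here. Positions are on GRCm38, since 99.47% and 98.33% of the listed genes had the start and end of GENCODE vM21, as did 40 and 38 of the members.

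Counts were filtered with edgeR's filterByExpr (at least 10 reads in enough mice and 15 in total), given TMM factors, and tested with edgeR 4.0.16 (glmQLFit and glmQLFTest, robust, two-sided) in R 4.3.3, by genotype within each table, which left 15441 and 14908 genes. The interaction and DSS against no DSS were fitted over the 14 mice on 54378 genes present in both tables, of which 96.8% had the same length. P values were adjusted by Benjamini-Hochberg over all genes tested. "Rose" and "fell" refer to an adjusted p under 0.05, and calls at an unadjusted p under 0.05 are given beside them. CPM are TMM-scaled, and SE comes from the fit. The members, gene lists and markers were chosen with earlier results of these data known. Values are given by mouse, by range or as mean and SD for *Myd88* and *Nfkb1*, and for members with an unadjusted p under 0.05 or without overlap between genotypes. The same holds for the member with the smallest genotype p of each role and for the 10 members with the largest DSS changes called in both genotypes. Of each list at most 5 higher and 5 lower genes were named per experiment. Levels between genes are per kilobase of gene length. Other settings tried were leaving out each mouse, fitting the 14 mice together, blocking on the replicate number, keeping genes of equal length in both tables, dropping the filter or requiring 10 reads in every mouse, RLE factors, and DESeq2 1.42.0. The tests were tried on simulated counts with known changes before use. Columns after DSS are numbered 1 to 3 and could be matched to their group but not to a single labelled mouse. Sequences came from RefSeq and GENCODE tables, and 10 members had no promoter entry.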

Additional observations from a re-analysis of the deposited data

Results flagged for a closer look

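In the groups of 4 mice without DSS, a mouse lay far from the other 3 in 7 of 76 member and group combinations, where chance flags about 1 in 20. *Nfkbiz* was at 53.2 CPM in *MiR-29ab1-/-* mouse 4, against 116, 116 and 125 CPM in the others. *Tnfaip3* was at 56.6 CPM in WT mouse 2, against 38.8 to 40.9 CPM. *Nfkbia* was at 69.8 CPM and *Birc3*, which encodes the ubiquitin ligase cIAP2, at 77.0 CPM in WT mouse 1, against 52.9 to 55.7 and 54.8 to 57.3 CPM. *Irak1* was at 88.6 CPM in *MiR-29ab1-/-* mouse 3, against 74.7 to 76.8 CPM. In WT mouse 3, *Irak2* was lowest at 23.0 CPM, against 26.5 to 27.2 CPM, and *Ripk2* highest at 14.6 CPM, against 13.3 to 13.5 CPM. The groups of 3 mice after DSS were not examined in this way.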

How the results depend on the processing

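Counts of members at an adjusted p under 0.05 between genotypes, and in the interaction, stayed at 0 in every alternative run. Without DSS the number of members higher at an unadjusted p under 0.05 became 1 with no filter on low counts and with at least 10 counts in every mouse, and was 0 to 1 with a mouse left out; it was *Tnip1* in those 2 settings and without *MiR-29ab1-/-* mouse 2 or WT mouse 1, *Nfkbiz* without *MiR-29ab1-/-* mouse 4 and *Tlr4* without WT mouse 2. After DSS, with no filter, the numbers were 3 higher and 2 lower, and with a mouse left out they ran from 2 to 6 and from 0 to 2; the median of the members ran from 0.045 to 0.130. For the interaction no filter gave 0 higher, a mouse left out gave 0 to 2 higher and 1 to 2 lower, and the median ran from 0.025 to 0.108. For DSS against no DSS with a mouse left out, the WT mice gave 10 to 15 higher and 2 to 6 lower with a median of 0.144 to 0.239, and the *MiR-29ab1-/-* mice 11 to 13 higher and 3 to 5 lower with a median of 0.182 to 0.266. Other pathway genes without DSS had 1 higher with the replicate block and 0 to 2 with a mouse left out, and 1 lower with no filter or all 14 mice in one model (0 to 1 with a mouse left out). After DSS they had 3 higher with all 14 mice in one model, 2 to 12 higher and 0 to 2 lower with a mouse left out, and none of these 6 fits kept the lower count of 1. NF-kB target genes without DSS had 0 higher with no filter or the replicate block and 0 to 2 with a mouse left out, and 1 lower with no filter or all 14 mice in one model (0 to 1). After DSS they had 8 higher by DESeq2, 10 with all 14 mice in one model, 2 to 12 with a mouse left out, and 0 to 1 lower. Leaving out mice removes samples; the cause of the other shifts was not tested. The sign of the log2 fold change differed from the reported one in at least 1 alternative for 21 of 38 members between genotypes without DSS (*Myd88* and *Nfkb1* among them; reported values -0.08 to 0.16), 13 after DSS (-0.36 to 0.11), 16 in the interaction (-0.42 to 0.31), and 4 and 3 for DSS against no DSS in WT and *MiR-29ab1-/-* mice. None of these was called at the threshold used for its comparison.

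The replicate numbers of the mice without DSS did not pair them: deviations of same-numbered mice correlated at -0.03, 0.149, -0.194 and -0.127, and with the replicate block 0 members were called at either threshold. A block after DSS was not run, because the column numbers there match no mouse number in the labels. *Tlr7* and *Tlr9*, at 0 to 15 reads per mouse, were not tested, and *Tlr6* had 9 to 38 reads.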
